A study of Mus musculus with 30 samples.

Results

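Iron import, export and storage were followed through 9 genes: Slc11a1, Slc11a2, Slc40a1, Slc25a37, Tfrc, Fth1, Ftl1, Hmox1 and Ireb2. Each was found by its symbol once among the 51752 genes of the deposited count table, and all 9 had enough counts to be tested in every comparison. The data are 30 RNA-seq libraries made from 15 mice, in 2 experiments on interleukin-34 (IL-34), a cytokine that neurons supply to microglia through the receptor Csf1r. The genotype experiment held 4 mice heterozygous for an Il34 deletion (Het, 2 males and 2 females) and 3 Il34 knockouts (KO, 1 male and 2 females), so its controls carry 1 intact copy of the gene. The antibody experiment held wild-type mice, of which 4 received anti-gp120, a control antibody (2 males and 2 females), and 4 received anti-IL34 (3 males and 1 female). Every mouse was perfused with saline and gave 1 library of whole forebrain from one hemisphere and 1 of cells isolated with a CD11b antibody from the other, here called the isolate. CD11b is carried by microglia and also by monocytes, neutrophils and border macrophages. The labels give neither the ages of the mice, nor how the Il34 allele was made, nor the dose or timing of the antibodies.

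Cells take up iron bound to transferrin through the transferrin receptor (Tfrc), and the divalent metal transporter encoded by Slc11a2 moves the released ferrous iron out of the endosome. Slc11a1 (Nramp1) is a related transporter of phagosomes and late endosomes in macrophages, Slc25a37 (mitoferrin 1) carries iron into mitochondria, and Slc40a1 (ferroportin) is the known exporter of iron from cells. Ferritin, built of the heavy chain Fth1 and the light chain Ftl1, stores iron. Haem oxygenase 1 (Hmox1) frees iron from haem and is a classic stress-induced gene of macrophages. Ireb2 encodes the iron regulatory protein IRP2, which binds hairpins called iron-responsive elements in target mRNAs: in a 5′ untranslated region binding blocks translation, and in the 3′ region of Tfrc it stabilises the transcript. RNA counts therefore read only a share of this control, since the brake on ferritin and ferroportin acts on translation.

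The hairpins are shown because their place in the transcript, 5′ or 3′, sets which of these actions applies. The GENCODE M21 transcripts of GRCm38 were searched on the sense strand for the loop CAGTGN after an unpaired C, with 5 of 5 stem positions paired (G with T allowed): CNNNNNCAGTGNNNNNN in the untranslated regions. A match was present in 4 of the 9 genes, against 160 of 21866 protein-coding genes (0.732%). In the sequences below, written as DNA 5′ to 3′ along the transcript with 6 further bases on each side, the capitals mark the loop. Slc40a1, Fth1 and Ftl1 each held 1 match in the 5′ region, at chr1:45925465-45925493 (minus strand), chr19:9982732-9982760 (plus) and chr7:45459779-45459807 (minus).
Slc40a1: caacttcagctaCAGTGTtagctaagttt
Fth1: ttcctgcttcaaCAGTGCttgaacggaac
Ftl1: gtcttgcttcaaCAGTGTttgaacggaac
Tfrc held 4 matches in its 3′ region, on the plus strand at chr16:32631219-32631247, chr16:32631598-32631626, chr16:32631663-32631691 and chr16:32631710-32631738.
Tfrc site a: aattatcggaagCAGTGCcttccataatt
Tfrc site b: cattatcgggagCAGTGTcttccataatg
Tfrc site c: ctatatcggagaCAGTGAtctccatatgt
Tfrc site d: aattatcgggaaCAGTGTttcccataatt
The match lay in 1 of the 4 coding transcripts annotated for Slc40a1, 4 of 5 for Fth1, 1 of 2 for Ftl1 and 1 of 3 for Tfrc, so it is not shared by every annotated transcript of these genes. In the other 5 genes no such fully paired match was found, which says nothing of hairpins with another stem, such as the element with a bulged stem known from the 3′ region of Slc11a2. The matches are a description of the annotated sequence, and none of the libraries measured binding or protein.

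The gene spans on GRCm38 are chr1:74375195-74386062 for Slc11a1 (plus strand), chr15:100387898-100425072 for Slc11a2 (minus), chr1:45908068-45926523 for Slc40a1 (minus), chr14:69241848-69285112 for Slc25a37 (minus), chr16:32608920-32632794 for Tfrc (plus), chr19:9980598-9985098 for Fth1 (plus), chr7:45457944-45459884 for Ftl1 (minus), chr8:75093621-75100589 for Hmox1 (plus) and chr9:54863789-54912530 for Ireb2 (plus). The table's Length column equals these whole spans, introns included, so the counts may hold intronic reads. Of the genes annotated inside or across a span, Gm5475 on the opposite strand of Slc11a2 had a median of 2 counts per library and Gm10252 opposite Ftl1 a median of 1.5. The 4 genes that overlap Slc25a37 had 0 counts in every library. Among 15 further rows named for ferritin chains, the copies Ftl1-ps1 (median 1456.5 counts) and Fth1-ps (median 97) were the ones above 10, so the level of Ftl1 in particular is uncertain by the reads that could be assigned to either.

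Library totals ran from 15.1 to 75.2 M counts (M, mega), so that 1 count was worth 0.013 to 0.065 CPM (counts per M counts), the unit of the levels below. CPM are scaled by TMM over all 30 libraries. Il34 itself read 18.6 to 23.2 CPM in the Het forebrains and 6.55 to 8.31 in the KO forebrains, while anti-gp120 and anti-IL34 forebrains had 35 ± 3.25 and 36.5 ± 2.16 CPM (SD, n = 4 each). The sum of 9 microglial marker genes was 10800 to 18700 CPM in the Het isolates and 4130 to 4470 in the KO isolates, and 13900 to 18300 against 5570 to 8830 CPM in the anti-gp120 and anti-IL34 isolates. In forebrain that sum was 226 to 260 against 97.2 to 117 CPM for Het and KO, and 362 to 442 against 162 to 200 CPM for anti-gp120 and anti-IL34. In the isolates the median sum of 8 astrocyte markers was 6750 CPM in Het and 14700 in KO, without overlap of the arms. It was 7180 CPM under anti-gp120 and 15300 under anti-IL34, with overlap (4530 to 17800 against 9950 to 18100 CPM). In edgeR 0 of the 8 passed (adjusted p under 0.05) in either experiment, where 5.37% and 0.626% of all genes did. At an unadjusted p under 0.05 there were 3 with deletion and 0 with the antibody, where 32.6% and 25.9% of all genes were. Het animal 1 and anti-gp120 animal 15 had the highest astrocyte sums of their control arms (10900 and 17800 CPM), and results that rest on them are also given without them. In these bulk libraries fewer microglia and less RNA per microglial cell cannot be told apart.

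In the 8 control animals (Het and anti-gp120), the isolates were rich in transcripts for taking iron from haem, storing it, exporting it and moving it out of phagosomes, and no richer than forebrain in the transferrin receptor or IRP2. Hmox1 was 414-fold higher in the isolates than in forebrain (log2 8.69 ± 0.27, standard error), Slc11a1 74.4-fold, Ftl1 16.5-fold and Slc40a1 13.3-fold. Fth1 (3.44-fold), Slc11a2 (3.18-fold) and Slc25a37 (2.07-fold) were higher by less. Ireb2 and Tfrc were lower in the isolates, at 80.8% and 76.2% of the forebrain level. All 9 passed (edgeR, Benjamini-Hochberg adjusted p at most 0.0113 for Tfrc), 7 higher and 2 lower, where 84.1% of all 18752 genes tested passed, 40.8% higher and 43.3% lower. Tfrc alone lost its call when 1 animal was left out, anti-gp120 animal 1.

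**Figure D1:**
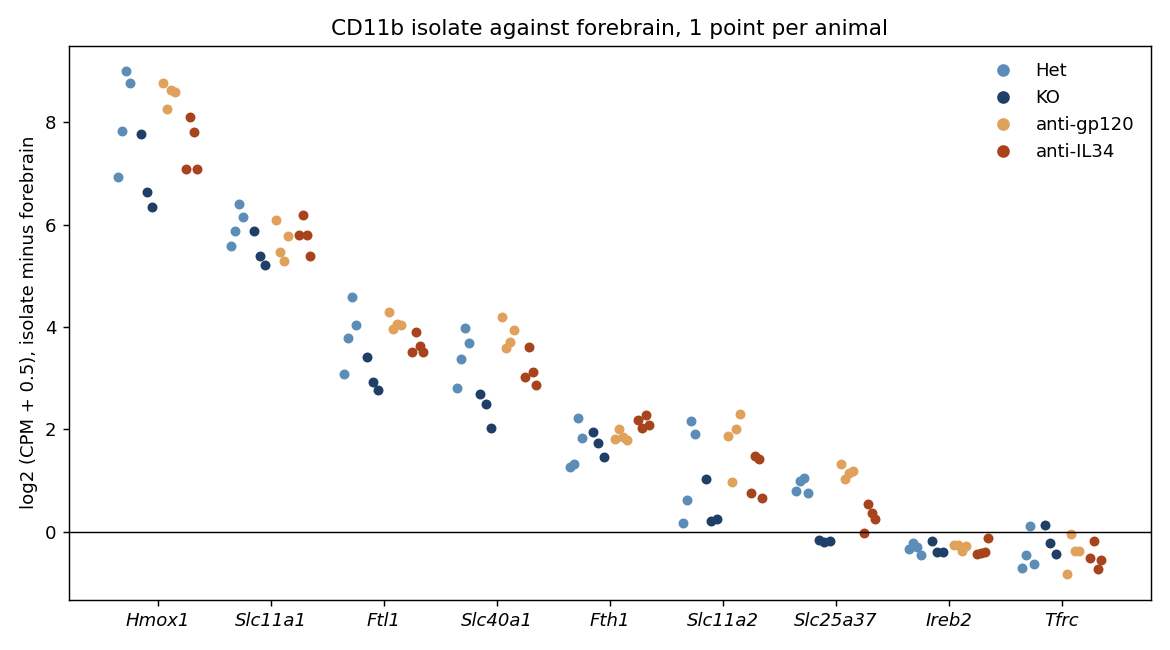
The vertical axis is the log2 difference between the isolate and the forebrain of the same mouse (CPM with 0.5 added), with 1 point per mouse for each gene and colours for the 4 arms. Hmox1 lies highest, between 6.34 and 9, Ireb2 lies below 0 in every mouse, and Slc25a37 lies above 0 in the Het mice (0.75 to 1.05) but below 0 in the KO mice (-0.21 to -0.16).

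Levels of different genes were compared per kilobase of the main spliced transcript. For Slc11a1 and Slc11a2, without a transcript marked as principal in the annotation, the longest coding transcript was used. The counts may hold intronic reads, which this length leaves out, so the order of the genes is approximate. In control forebrain Fth1 led at 348 ± 35.8 CPM per kb (SD, n = 8), followed by Tfrc at 41.6 ± 9.0, Ftl1 at 36.6 ± 4.99 and Ireb2 at 23.4 ± 1.56. Counts per kb assigned to Fth1 thus exceeded those assigned to Ftl1 severalfold in whole tissue. Reads that could belong to Ftl1-ps1 leave the level of Ftl1, and with it this comparison of the chains, uncertain. The spread of Tfrc overlapped that of Ftl1. Slc11a2 (9.69 ± 0.544), Slc25a37 (8.84 ± 0.469), Slc40a1 (5.94 ± 0.514), Hmox1 (1.49 ± 0.251) and Slc11a1 (0.742 ± 0.246 CPM per kb) came last. In the control isolates the order was Fth1 (1200 ± 243), Hmox1 (628 ± 212) and Ftl1 (603 ± 170), the last pair not separated by their spread, then Slc40a1 (78.9 ± 19) and Slc11a1 (54 ± 12.4 CPM per kb). Tfrc (31.5 ± 8.85), Slc11a2 (30.9 ± 13.7), Ireb2 (18.8 ± 1.67) and Slc25a37 (18.3 ± 1.73 CPM per kb) closed the order, neighbours within their spread. By CPM, Hmox1 ranked 13722nd of all genes in forebrain and 100th in the isolates.

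Hmox1 and the dissociation of tissue are measured together here. A list of 10 genes known to rise when brain tissue is dissociated summed to 454 to 679 CPM over all forebrain libraries and to 3970 to 14100 CPM over all isolates, and 10 of the 10 passed as higher in the isolates of control animals, with a median log2 difference of 6.06. The part of that response in the tissue difference of Hmox1 was not tested.

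The response to loss of IL-34 differed by gene. With deletion, 1 of the 9 genes passed in forebrain, Slc11a1, where 0.62% of all genes passed, and 2 of 9 passed in the isolates, Slc11a1 and Slc25a37, where 5.37% of all genes did. With the antibody, 0 of 9 passed in forebrain (0.717% of all genes; 2 of 9 at an unadjusted p under 0.05 in edgeR, 0 of 9 by DESeq2) and 1 of 9 passed in the isolates, Slc25a37 (0.626% of all genes). DESeq2 called more in the isolates: with deletion 5 of 9 genes (adding Slc40a1, Ftl1 and Hmox1), where it called 20.9% of all genes, and with the antibody 4 of 9 (adding the same 3), where it called 11.5%. For counts at an unadjusted p under 0.05 in edgeR, given below beside some lists, the shares of all genes were 7.45% with deletion and 4.86% with the antibody in forebrain, and 32.6% and 25.9% in the isolates. The median log2 change over the 9 genes was -1.03 in KO isolates and -0.67 in anti-IL34 isolates, against 0.02 and 0.06 for all genes tested. In forebrain the medians were -0.10 and -0.06.

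**Figure D2:**
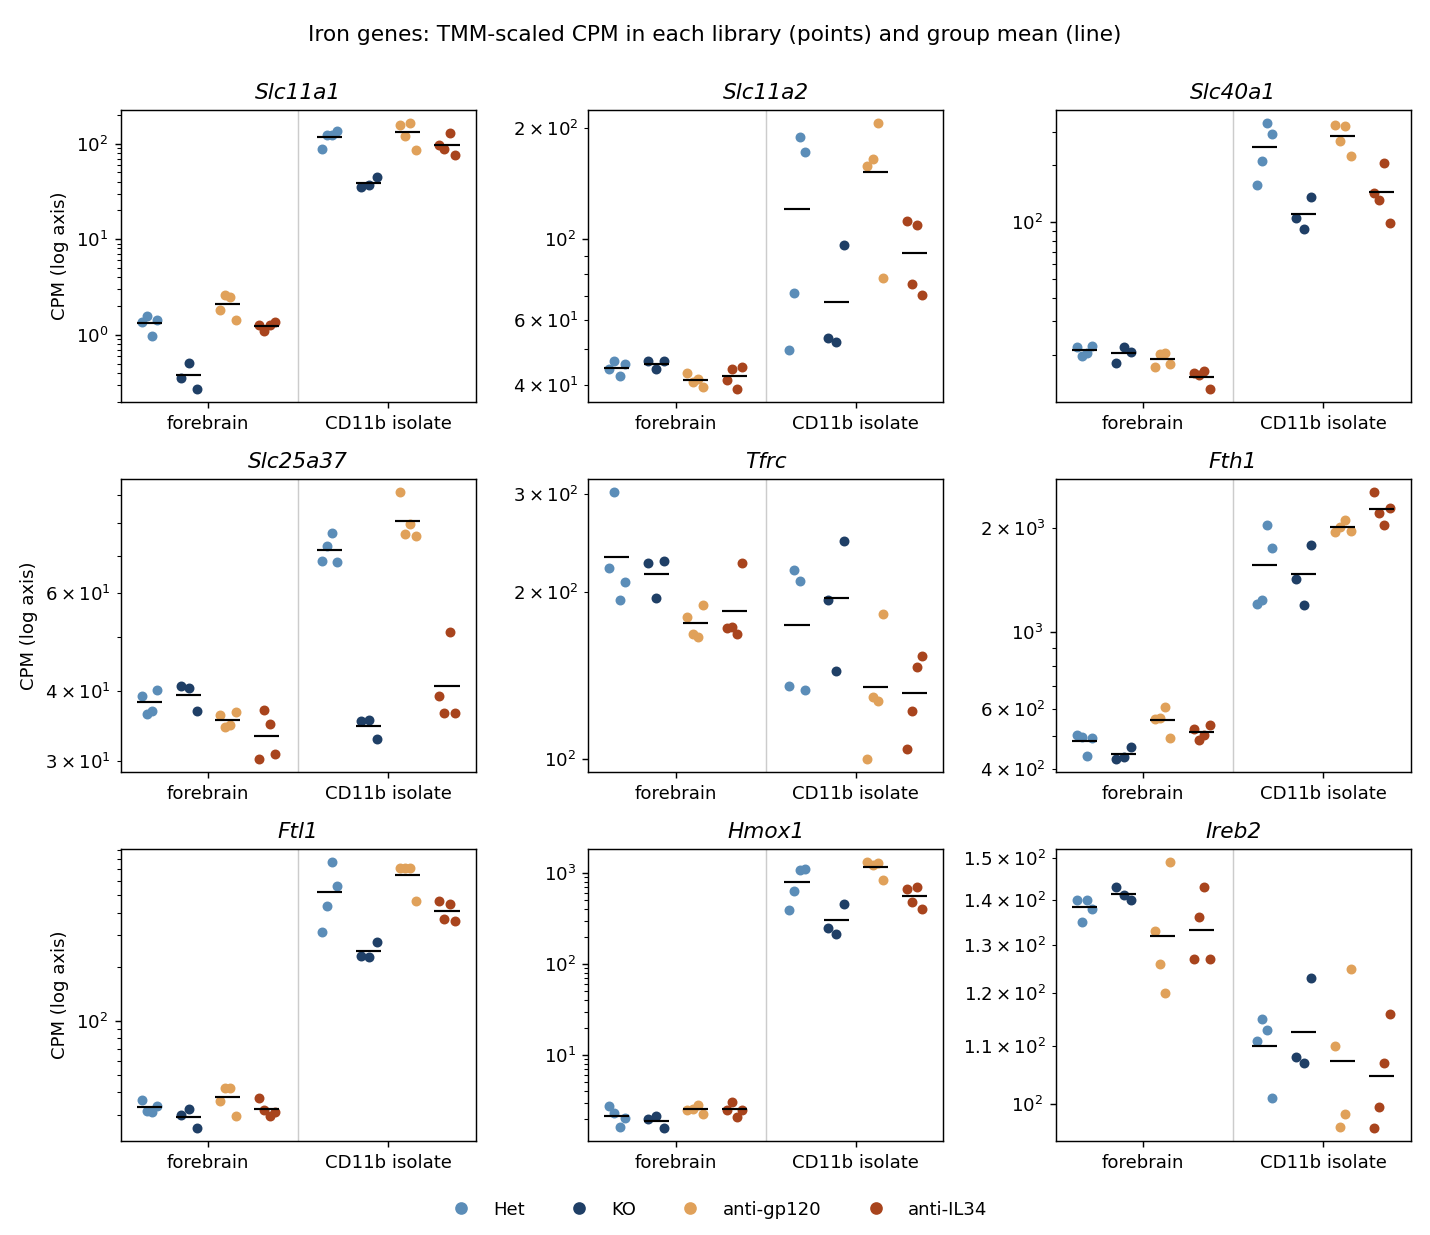
Each panel gives 1 gene, with a point per library and a line at the group mean in CPM on a log axis, forebrain on the left and CD11b isolates on the right. Slc11a1 is lower in KO libraries on both sides, Slc25a37 in KO and anti-IL34 isolates, and Ireb2, Fth1 and Tfrc overlap between the arms of each experiment.

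Slc11a1, the phagosomal transporter of macrophages, fell with deletion in both preparations. Its CPM in forebrain were 0.975, 1.37, 1.42 and 1.59 in the Het mice and 0.27, 0.356 and 0.508 in the KO mice. The arms did not overlap, and the lowest KO library held 6 counts of the gene. Slc11a1 fell to 29.2% of the Het level (log2 -1.77 ± 0.26; edgeR adjusted p = 0.00571). Without KO animal 3, the only male of its arm, the adjusted p in edgeR was 0.0609.

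In the isolates Slc11a1 read 88.7, 123, 124 and 136 CPM in Het and 35.6, 36.8 and 44.8 CPM in KO. Again every KO value lay below every Het value, and the gene fell to 32.5% (log2 -1.62 ± 0.16; edgeR adjusted p = 0.0136). The call held when Het animal 1 or Het animal 21 was left out and was lost without any of the other 5 mice, with fold changes of -1.69 to -1.54 on the log2 scale throughout and a highest adjusted p of 0.168 in edgeR without KO animal 3. Leaving out any of Het 20, Het 23 or the 3 KO animals left 0 genes of the whole table past the threshold in this comparison.

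The microglial marker genes fell along with Slc11a1 in these libraries. In KO isolates 9 of 9 measured markers passed as lower with a median log2 change of -1.63, and in KO forebrain 8 of 9 did with a median of -1.42. Slc11a1 less the mean of the microglial markers was -3.13 ± 0.29 on the log2 scale in Het isolates and -3.00 ± 0.16 in KO isolates (SD), a shift smaller than either SD. In forebrain the difference was -3.48 ± 0.22 in Het and -3.23 ± 0.12 in KO. Slc11a1 read only 0.27 to 1.59 CPM there, so the 0.5 CPM added before the log shapes this shift and its direction cannot be read. In edgeR the forebrain change of Slc11a1 was -1.77 on the log2 scale, beside the marker median of -1.42. The part of the cell make-up in the fall of Slc11a1 was not tested.

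With anti-IL34 the values of Slc11a1 did not pass. Forebrain CPM were 1.44, 1.83, 2.51 and 2.6 under anti-gp120 and 1.1, 1.26, 1.28 and 1.35 under anti-IL34, without overlap (log2 -0.76 ± 0.23; edgeR adjusted p = 0.405). Isolate CPM were 85, 120, 158 and 165 under anti-gp120 against 77.1, 88.7, 97.1 and 129 under anti-IL34, and the arms overlapped (log2 -0.41 ± 0.24; edgeR adjusted p = 0.278). Without anti-gp120 animal 15 the isolate change was -0.601 ± 0.13 on the log2 scale with an adjusted p of 0.0117 in edgeR, a fit in which 40.4% of all genes passed. It passed in none of the other 7 such fits, and without anti-gp120 animal 1 the change was -0.238 (edgeR adjusted p = 0.663).

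The same difference was -2.24 ± 0.18 in anti-IL34 isolates against -3.16 ± 0.36 under anti-gp120, so relative to the markers Slc11a1 was highest in the anti-IL34 arm. Markers of neutrophils and monocytes, which also use Slc11a1, summed to 193 to 569 CPM in the anti-IL34 isolates and 56.6 to 371 CPM in the anti-gp120 isolates, against 46.6 to 116 CPM over all Het and KO isolates. In edgeR 0 of the 10 markers of that list passed in the isolates of either experiment (1 at an unadjusted p under 0.05 in each, higher; median log2 change 0.82 with the antibody and 0.31 with deletion), and their part in the level of Slc11a1 was not tested. The change with deletion exceeded that with the antibody by 1.19 ± 0.31 on the log2 scale in the isolates and by 1.01 ± 0.36 in forebrain, with unadjusted p of 0.00184 and 0.011 and edgeR adjusted p of 0.654 and 1, so the experiments were not shown to differ.

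Slc25a37, the mitochondrial iron importer, was lower in the isolates under both losses of IL-34. The Het isolates held 68.1, 68.5, 73 and 76.9 CPM and the KO isolates 32.9, 35.4 and 35.6 CPM. The arms were tight and far apart, and the gene fell to 48.9% of Het (log2 -1.03 ± 0.11; edgeR adjusted p = 0.0136). As for Slc11a1, the call held when Het animal 1 or Het animal 21 was left out and was lost without any of the other 5 mice, while the change stayed between -1.057 and -1.004 on the log2 scale. The highest adjusted p in edgeR was 0.168, without KO animal 3.

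Under anti-gp120 the isolates read 75.9, 76.5, 79.8 and 90.9 CPM of Slc25a37 and under anti-IL34 36.6, 36.6, 39.2 and 51.2 CPM. These arms did not overlap either, and Slc25a37 fell to 51.5% (log2 -0.96 ± 0.13; edgeR adjusted p = 0.0374). This call held without anti-gp120 animal 15 or anti-IL34 animal 11 and was lost without any of the other 6 mice (highest adjusted p in edgeR 0.217, without anti-gp120 animal 7), with changes from -1.16 to -0.84 on the log2 scale. Deletion and antibody differed by -0.05 ± 0.17 on the log2 scale for this gene.

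The forebrain level of Slc25a37 did not follow. It was 36.5 to 40.2 CPM in Het and 36.9 to 40.9 CPM in KO, and 34.5 to 36.8 CPM under anti-gp120 against 30.3 to 37 CPM under anti-IL34, each pair of arms overlapping (log2 0.07 ± 0.05 and -0.06 ± 0.07; neither passed). The deletion effect was lower in the isolates than in forebrain by 1.07 ± 0.12 on the log2 scale (edgeR adjusted p = 0.00794), the 1 of 9 genes to pass a comparison in which 2.98% of all genes did. With the animal as a replicate block the adjusted p of that difference was 0.0852 in edgeR, and without any one of Het 20, Het 23 and the KO animals it was lost as well. For the antibody the difference was -0.91 ± 0.16 (edgeR adjusted p = 0.058, and 0.179 with the replicate block), and 0 of 9 genes passed where 0.0924% of all genes did. At an unadjusted p under 0.05 it was 4 of 9 in edgeR, where 21.1% of all genes were, and 2 of 9 passed by DESeq2, where 5.94% of all genes did.

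In KO mice the isolate held less Slc25a37 than the forebrain of the same mouse, with a log2 difference of -0.18 ± 0.02 (SD, n = 3). The difference was 0.90 ± 0.14 in Het, 1.17 ± 0.12 under anti-gp120 and 0.28 ± 0.24 under anti-IL34 (n = 4 each). Slc25a37 less the mean of the microglial markers was -3.83 ± 0.25 on the log2 scale in Het isolates and -3.17 ± 0.09 in KO isolates, so it was lower in KO by less than the markers were. In KO isolates the sum of oligodendrocyte markers was 8430 to 19400 CPM against 3170 to 10900 CPM in Het, and that of astrocyte markers 12000 to 15100 against 2990 to 10900 CPM. Red cell precursors are known for high Slc25a37, and 8 erythroid markers summed to at most 51.8 CPM in any isolate. In edgeR 0 of the 5 and 0 of the 4 of them that could be tested passed with deletion and antibody in the isolates, also at an unadjusted p under 0.05. The part of other cells in the level of Slc25a37 was not tested.

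**Figure D3:**
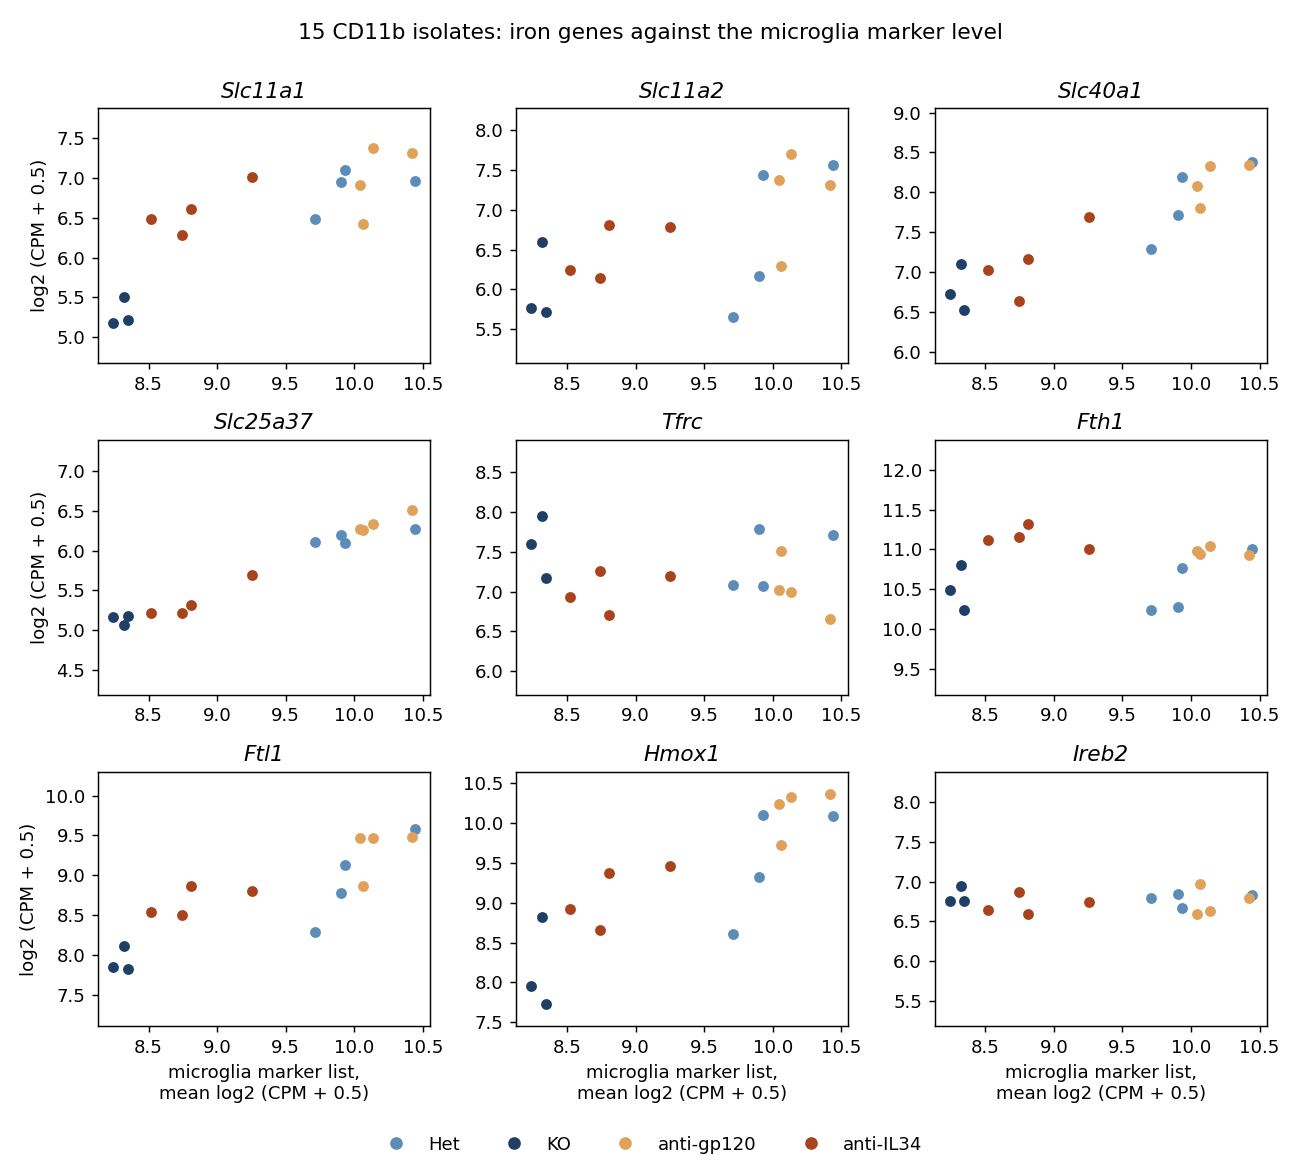
For the 15 isolates, each panel sets 1 gene (vertical axis, log2 of CPM with 0.5 added) against the mean log2 level of 9 microglial markers (horizontal axis), with colours for the arms. The KO isolates lie leftmost, at 8.24 to 8.35, and the genes Slc11a1, Slc25a37, Slc40a1, Ftl1 and Hmox1 are low there, while Fth1 is at its highest in anti-IL34 isolates and Ireb2 stays level.

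The exporter Slc40a1 and the light chain Ftl1 had separate arms in both sets of isolates without passing in edgeR as fitted here, while DESeq2 called both in both experiments. Slc40a1 read 156, 210, 292 and 333 CPM in Het isolates and 91.6, 105 and 136 CPM in KO isolates (log2 -1.16 ± 0.30; edgeR adjusted p = 0.0775). Under anti-gp120 it read 222, 269, 320 and 325 CPM and under anti-IL34 98.4, 130, 143 and 206 CPM (log2 -0.95 ± 0.22; edgeR adjusted p = 0.0779). Every KO and anti-IL34 value lay below every value of its control arm, by a narrow margin in both experiments. Leaving out 1 mouse at a time moved the first adjusted p from 0.0178 (without Het animal 1) to 0.376 (without KO animal 3), past the threshold in 2 of 7 fits, and the second from 0.0061 (without anti-gp120 animal 15) to 0.246 (without anti-gp120 animal 7), past it in 2 of 8 (edgeR). The fits without Het animal 1 and without anti-gp120 animal 15 called 31.5% and 40.4% of all genes. DESeq2 gave Slc40a1 adjusted p of 0.00644 and 0.00465, and edgeR also called it in both experiments without the low-count filter, without the sex term and with all 15 isolates in 1 fit. Border macrophages also carry ferroportin. Their 9 markers summed to 811 to 980 CPM in Het and 427 to 872 in KO isolates, and to 566 to 1070 against 479 to 607 CPM under the antibodies. In edgeR 0 of 9 of them passed in either set of isolates (0 and 3 at an unadjusted p under 0.05), and their part was not tested.

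In forebrain Slc40a1 read 19.8 to 22.2 CPM in Het and 18.2 to 22.1 in KO, and 17.3, 17.9, 20.1 and 20.4 CPM under anti-gp120 against 13.2, 15.6, 16 and 16.5 under anti-IL34. The antibody arms did not overlap there (log2 -0.26 ± 0.10; edgeR adjusted p = 0.725). Slc11a1 and Slc40a1 were thus the 2 of 9 genes with separate and lower values in anti-IL34 forebrain, where 2.67% of all genes were, and Slc11a1 the 1 of 9 in KO forebrain, where 6.24% were.

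Ftl1 read 312, 438, 561 and 767 CPM in Het isolates and 226, 230 and 275 CPM in KO isolates (log2 -1.08 ± 0.33; edgeR adjusted p = 0.0993). Its anti-gp120 isolates held 468, 706, 707 and 711 CPM and its anti-IL34 isolates 362, 370, 447 and 465 CPM (log2 -0.67 ± 0.18; edgeR adjusted p = 0.105). The antibody arms were separated by the narrow gap between 465 and 468 CPM, the latter from anti-gp120 animal 15. Without that animal, where 40.4% of all genes passed, the adjusted p was 0.00623, and without anti-gp120 animal 7 it was 0.293 (edgeR; past the threshold in 1 of 8 fits). For the deletion it ran from 0.0191 without Het animal 1, where 31.5% of all genes passed, to 0.422 without KO animal 3 (edgeR; past it in 2 of 7 fits). The DESeq2 adjusted p of Ftl1 was 0.0166 with deletion and 0.0147 with the antibody, and edgeR also called it with deletion without the filter and with all 15 isolates. The copy Ftl1-ps1 lay in the same order, at 182 ± 82.2 CPM in Het, 91.4 ± 13.5 in KO, 229 ± 46.7 under anti-gp120 and 156 ± 22.3 CPM under anti-IL34 isolates (SD). In forebrain Ftl1 lay between 25.3 and 42.4 CPM in all 15 mice, with overlapping arms in both experiments.

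The heavy chain Fth1 did not share that pattern. Its isolates read 1210, 1240, 1750 and 2050 CPM in Het and 1200, 1430 and 1790 CPM in KO, overlapping but for 1 KO value below the lowest of Het (log2 -0.06 ± 0.30). Under the antibodies they read 1950 to 2110 CPM with anti-gp120 and 2050 to 2540 CPM with anti-IL34 (log2 0.16 ± 0.16), and neither change passed. Both chains join in the same protein shell, and both transcripts carry a 5′ hairpin printed above. By CPM, Fth1 ranked 217th of all genes in whole forebrain. The part of cells other than microglia in the isolate level of Fth1 was not tested, so its level within microglia is not known. Forebrain Fth1 was 439 to 502 CPM in Het and 430 to 464 CPM in KO (log2 -0.12 ± 0.05, unadjusted p = 0.0414 and adjusted p = 0.649 in edgeR), and 492 to 608 against 488 to 538 CPM under the antibodies.

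Hmox1 varied widely among the Het mice. Its isolates held 391, 640, 1090 and 1100 CPM in Het and 212, 247 and 453 CPM in KO, so Het animal 1 lay within the KO range (log2 -1.45 ± 0.46; edgeR adjusted p = 0.107). Its adjusted p in edgeR was 0.0285 without that animal, where 31.5% of all genes passed, and up to 0.422 without KO animal 3, passing in 1 of 7 fits. With anti-gp120 it read 847, 1210, 1290 and 1320 CPM and with anti-IL34 404, 483, 662 and 706 CPM. These arms did not overlap, yet the test was missed (log2 -1.04 ± 0.24; edgeR adjusted p = 0.0759), and it was passed in 1 of 8 leave-one-out fits. That fit left out anti-gp120 animal 15 (edgeR adjusted p = 0.00622, with 40.4% of all genes past the threshold), and the highest adjusted p was 0.248, without anti-gp120 animal 7. DESeq2 called Hmox1 in both sets of isolates (adjusted p = 0.0127 with deletion and 0.00174 with the antibody). So did edgeR without the filter, while without the sex term it called the antibody change only and with all 15 isolates the deletion change only. In forebrain Hmox1 read 1.57 to 3.05 CPM over all mice, with changes of -0.15 ± 0.195 and 0.01 ± 0.17 on the log2 scale.

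The dissociation list moved in the same libraries. It summed to 8330 to 14100 CPM in Het isolates and 3970 to 4890 in KO isolates, with 5 of its 10 genes past the threshold as lower and a median log2 change of -1.31, and to 9400 to 13800 CPM under anti-gp120 against 6240 to 9890 CPM under anti-IL34, with 0 of 10 past it in edgeR (4 at an unadjusted p under 0.05; median -0.54). Its part in the Hmox1 values was not tested. Hmox1 less the mean of the microglial markers was -0.47 ± 0.52 on the log2 scale in Het isolates and -0.13 ± 0.58 in KO isolates (SD). It was 0 ± 0.25 under anti-gp120 and 0.27 ± 0.28 under anti-IL34, and the arms overlapped in both experiments.

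By overlap of the arms, 4 of 9 genes had separate and lower values in KO isolates (Slc11a1, Slc25a37, Slc40a1 and Ftl1), where 20% of all genes did, and 4 of 9 in anti-IL34 isolates (Slc25a37, Slc40a1, Ftl1 and Hmox1), where 10.8% did. Both experiments showed this for Slc25a37, Slc40a1 and Ftl1. The experiments have separate controls and separate animals.

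**Figure D4:**
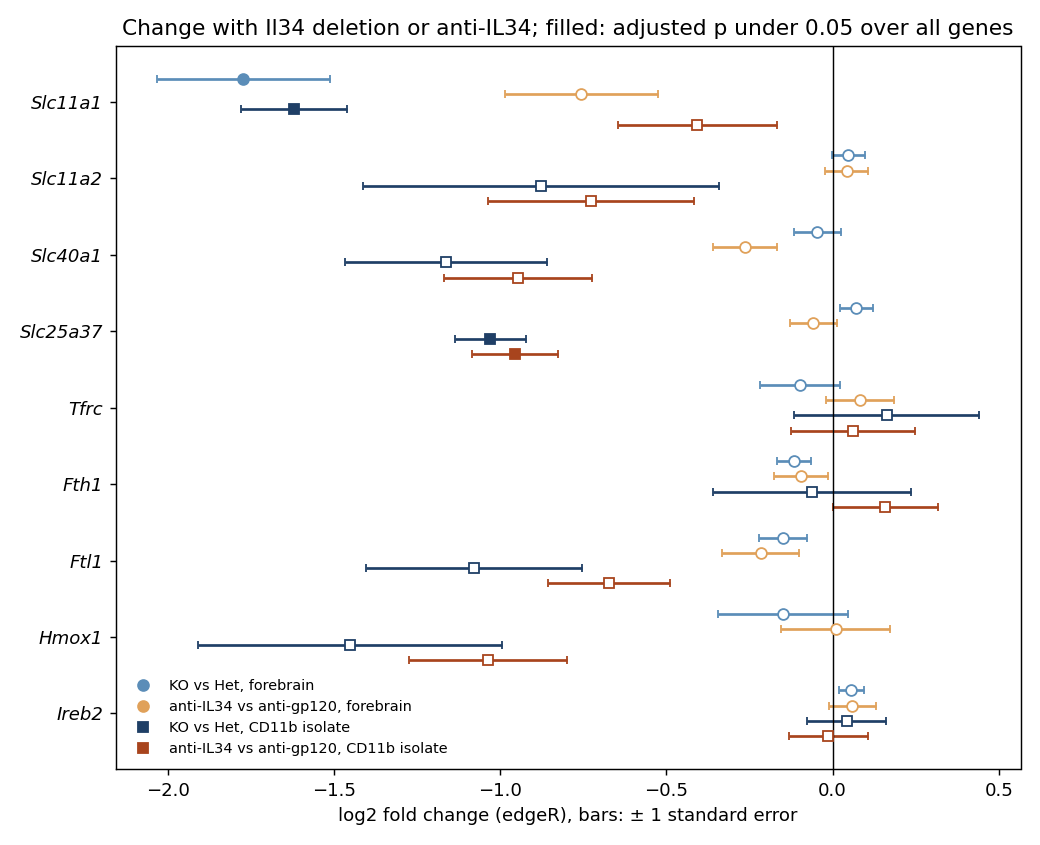
Points give the log2 fold change from edgeR for each gene and comparison (KO against Het and anti-IL34 against anti-gp120, circles for forebrain and squares for isolates), with bars of 1 standard error and filled symbols where the adjusted p was under 0.05. Filled symbols are those of Slc11a1 with deletion in both preparations and of Slc25a37 in both sets of isolates.

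The uptake genes of the transferrin route and the sensor gave no call. Slc11a2 in isolates read 49.7, 71.1, 172 and 189 CPM in Het and 52.2, 53.7 and 96 CPM in KO (log2 -0.88 ± 0.535; edgeR adjusted p = 0.275), with Het values on both sides of the KO values. Under the antibodies it read 78 to 207 and 70.1 to 112 CPM (log2 -0.73 ± 0.31; edgeR adjusted p = 0.191). Leaving out 1 mouse moved that p from 0.00719 without anti-gp120 animal 15, where 40.4% of all genes passed, to 0.463 without anti-gp120 animal 1 (edgeR; past the threshold in 1 of 8 fits). Tfrc was 133 to 219 CPM in Het, 144 to 247 in KO, 100 to 182 under anti-gp120 and 104 to 153 CPM under anti-IL34 isolates, all overlapping, with changes of 0.16 ± 0.28 and 0.06 ± 0.19 on the log2 scale. The second of these took the other sign without the sex term (-0.03).

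Ireb2 was the steadiest of the 9 genes. Its group means lay between 132 and 141 CPM in forebrain and between 105 and 113 CPM in the isolates, and its 4 changes with loss of IL-34 lay between -0.01 and 0.06 on the log2 scale with standard errors of 0.04 to 0.12. Changes of Tfrc and Slc11a2 in forebrain lay between -0.10 and 0.08.

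A further 67 genes of iron and haem handling were read in the same way. In KO forebrain, where 0.62% of all genes passed, 2 of 62 tested did (5 at an unadjusted p under 0.05, as were 7.45% of all genes), both lower: Trf, the iron carrier transferrin, and Hfe, a partner of the transferrin receptors. Trf read 91.7 to 107 CPM in Het forebrain and 75.7 to 82 in KO (log2 -0.37 ± 0.05; edgeR adjusted p = 0.00392), without overlap. Oligodendrocytes are a main known source of Trf in brain, and 6 of 8 oligodendrocyte markers also passed as lower in KO forebrain, with a median log2 change of -0.32 and summed levels of 4360 to 4770 against 5460 to 6410 CPM. In the isolates Trf was also lower without overlap, at 574 to 789 CPM in Het against 308 to 413 in KO (log2 -0.86 ± 0.205; edgeR adjusted p = 0.0629) and 674 to 967 under anti-gp120 against 437 to 515 CPM under anti-IL34 (log2 -0.80 ± 0.16; edgeR adjusted p = 0.0595). The oligodendrocyte markers had median changes in the other direction there, 0.83 and 0.65 on the log2 scale, with 0 of 8 past the threshold in edgeR in each (also 0 at an unadjusted p under 0.05). The part of oligodendrocytes in the Trf values was not tested. Hfe read 3.2 to 3.72 CPM in Het and 1.75 to 2.25 CPM in KO forebrain (log2 -0.78 ± 0.14; edgeR adjusted p = 0.0241).

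In KO isolates 3 of 63 passed (18 at an unadjusted p under 0.05), all 3 lower, where 5.37% of all genes passed and 32.6% were at an unadjusted p under 0.05. Hfe read 63.5 to 93.9 CPM in Het and 35.2 to 40.2 in KO (log2 -1.04 ± 0.17; edgeR adjusted p = 0.0221). Blvrb, a biliverdin reductase downstream of haem oxygenase, fell by 0.89 on the log2 scale (19.9 to 26.8 against 11.4 to 13.3 CPM), and Ppox, an enzyme of haem synthesis, fell by 0.62 (29 to 35.6 against 20.6 to 23 CPM). These calls, like all others of this comparison, were lost without any one of Het 20, Het 23 and the KO animals. With the antibody 0 of 59 passed in forebrain and 0 of 63 in the isolates (edgeR, with 3 and 20 at an unadjusted p under 0.05), where 0.717% and 0.626% of all genes passed, and 4.86% and 25.9% were at an unadjusted p under 0.05. The median log2 change of the 67-gene list was -0.02 and -0.06 with deletion and -0.03 and 0.00 with the antibody, in forebrain and isolates in turn.

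Between the preparations, 40 of these 63 genes were higher in control isolates and 11 lower, with a median log2 difference of 0.58, where 40.8% of all genes were higher and 43.3% lower. They were led by p by genes of several roles. Nfe2l2 (38.6-fold), the oxidative stress factor NRF2, Bach1 (22.5-fold), the haem-sensing repressor of Hmox1, and Cd163 (32.6-fold), the haemoglobin scavenger receptor of border macrophages, were higher, as were Hfe (23.2-fold), Cp (ceruloplasmin, the ferroxidase that works with ferroportin, 7.15-fold), Trf (7.12-fold), Blvrb (7.1-fold), Slc39a8 (6.15-fold), Abcg2 (3.73-fold) and Lrp1 (3.31-fold). Choroid plexus epithelium, known for transferrin, was present in part of the isolates: its 8 markers summed to 1710 to 3940 CPM in Het, 1180 to 3100 in KO, 5.76 to 11 under anti-gp120 and 8.71 to 2220 CPM under anti-IL34. In forebrain the sum was 149 to 194 CPM in Het and 8.46 to 61.2 CPM under anti-gp120, so of the control mice the 4 Het had more in the isolate and the 4 given anti-gp120 less. Over these 8 mice together 6 of the 8 markers passed as higher in the isolates. Between the arms 0 of 8 (deletion) and 0 of 6 (antibody) passed in the isolates in edgeR, with 0 and 6 at an unadjusted p under 0.05. The part of choroid plexus in the levels of Trf, Cp and the other iron genes was not tested.

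Over the 15 isolates, the genes whose log2 levels ran most closely with a member were searched among 12461 genes with at least 5 CPM on average. For Slc11a1 these were Prkcd (Pearson r = 0.974), Tcirg1 (0.971) and Gmip (0.966), and for Slc25a37 Golm1 (0.986), Numb (0.984) and Ptgs1 (0.983). Slc40a1 ran with Cpsf1 (0.987), Acap2 (0.984) and Dusp12 (0.983), and Ftl1 with Scpep1 (0.994), Vps11 (0.992) and Tatdn2 (0.991). The isolates share differences of cell make-up and arm, which all these values contain, so the correlations are a description of these libraries.

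Deletion and antibody were compared directly as the difference of their effects. In forebrain 0 of 9 genes passed, where 0.0101% of all genes did, and in the isolates 0 of 9 passed, where 0% of all genes did in edgeR (740 genes at an unadjusted p under 0.05, and 27 genes by DESeq2). Slc11a1 was the 1 of 9 genes at an unadjusted p under 0.05 in each preparation, and DESeq2 called 0 of 9 in both. The standard errors of these differences reach 0.629 on the log2 scale for Slc11a2 and 0.505 for Hmox1 in the isolates, so differences of that size were not detectable with these numbers of mice.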

How the data were processed

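The authors deposited raw read counts per gene for 30 libraries; whole numbers with unequal totals, no normalization. STAR 2.7.5c, featureCounts 1.6.3, R 4.4.0 and GRCm38 are named in the submitters' processing notes, with no role or order. Per the labels' protocols, RNA came by TRIzol and libraries by the Takara SMART-Seq v4 kit. Strand use and treatment of reads that map to several places are not given in the sources used here. Of its genes, 8 had no name, and 6 columns of per-sample values matched no sample with labels and were not used.

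The test was edgeR 4.0.16 under R 4.3.3 (quasi-likelihood F test, TMM, default filter on the group, sex as covariate, Benjamini-Hochberg adjustment over all genes tested, threshold 0.05). Each contrast of arms used the libraries of 1 tissue and experiment; the tissue contrast used 8 control animals, with experiment and sex; tissue differences and deletion minus antibody were interaction terms. Standard errors are the log2 fold change over the square root of F. Mice are the replicates. The scripts were tested on simulated data. Alternatives were RLE scaling, DESeq2 1.42.0, no filter, no sex term, all 15 libraries of a tissue together, the replicate block, and leaving out each animal. One alternative, with the ferritin copies summed, was added after seeing the data.

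Both libraries of a mouse carry its number in the labels and in the deposited sample sheet (30 of 30 agree in animal, sex, tissue and experiment). Their deviations from the group means correlated with a median of 0.202 over 14618 genes (0.0843 to 0.402, and above 0.1 in 12 of 15 mice). For different mice of 1 arm the median was -0.0732. Deviations within a group sum to 0, which pulls that second value below 0, so it is no independent reference for the pairing. Over 42 replicate pairs, chi-square divided by its degrees of freedom was at least 5.84, so each library was counted once.

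The members, gene lists and marker lists were chosen with earlier results of these data known. Named were all 9 members, listed iron genes past the threshold (up to 10 by p), the 3 genes most like a member over the isolates for 4 members, and ferritin copies. Fcrls, of the microglial list, has no row under that symbol.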

Additional observations from a re-analysis of the deposited data

Results flagged for a closer look

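Of 54 groups of 4 libraries examined (9 genes in the groups of that size), 3 held a library far from the others by Dixon's criterion, near the 1 in 20 that chance gives. Tfrc in the forebrain of anti-IL34 animal 24 was 225 CPM, with the nearest library at 173. Fth1 in the forebrain of Het animal 21 was 439 CPM, with the nearest at 493. Ftl1 in the isolate of anti-gp120 animal 15 was 468 CPM, with the nearest at 706. The effect of deletion on Slc25a37 differed between isolate and forebrain by -1.07 on the log2 scale, by an interaction test that passed without the replicate block and did not pass with it.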

How the results depend on the processing

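Number of members past the threshold. The share of all genes tested that passed is given in brackets. KO isolates had 2 (5.37%), and 5 with DESeq2 (20.9%), without the low-count filter (6.78%) or with all 15 libraries in 1 fit (14.6%). Without the sex term they had 3 (12%), and without each animal 0 to 5 (0% to 31.5%). Anti-IL34 isolates had 1 (0.626%), and 4 with DESeq2 (11.5%), 3 without the filter (2.75%) and 3 without the sex term (5.59%). They had 2 with all 15 libraries (5.27%) and 0 to 6 without each animal (0% to 40.4%). KO forebrain had 1 (0.62%) and 0 to 1 without each animal (0.279% to 0.614%), and anti-IL34 forebrain 0 under every alternative (0.717% as fitted). The tissue contrast had 9 (84.1%), also with the replicate block (83.4%), and 8 to 9 without each animal (82.1% to 84.3%). The tissue difference of the deletion had 1 (2.98%), and 2 with DESeq2 (17.9%), 2 without the filter (4.82%) and 0 with the replicate block (0%). Without each animal it had 0 to 4 (0% to 28.5%). That of the antibody had 0 (0.0924%), and 1 with RLE scaling (0.261%), 2 with DESeq2 (5.94%) and 4 without the filter (4.15%). It had 0 with the replicate block (0%) and 0 to 5 without each animal (0% to 29.9%). Deletion minus antibody gave 0 under every alternative. The replicate block changed no other call of a member, and summing the ferritin copies none. The causes were not tested.

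All genes past the threshold. KO isolates had 976, with 3807 by DESeq2, 1993 without the filter, 2189 without the sex term, 2734 with all 15 libraries, and 0 to 5756 without each animal (5756 without Het animal 1). Anti-IL34 isolates had 110, with 2020, 819, 983 and 988 in the same order and 0 to 6905 (6905 without anti-gp120 animal 15). KO forebrain had 120, with 381 without the filter and 55 to 117 without each animal; anti-IL34 forebrain had 123, with 198 by DESeq2, 349 without the filter, 204 with all 15 libraries and 25 to 126. The tissue difference of the deletion had 599, with 3595 by DESeq2, 1569 without the filter, 0 with the replicate block and 0 to 5688 without each animal; that of the antibody had 17, with 48 by RLE, 1092 by DESeq2, 1352 without the filter, 0 with the block and 0 to 5565. Deletion minus antibody had 2 in forebrain, with 27 by DESeq2, 114 without the filter and 2 to 33 without each animal, and 0 in isolates, with 27, 1 and 0 to 5.

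Signs turned for small changes that pass nowhere. Tfrc in anti-IL34 isolates was -0.032 without the sex term and -0.008 with all 15 libraries. Ireb2 had a tissue difference of the deletion of -0.026 (RLE) and -0.025 (DESeq2), and in deletion minus antibody in forebrain 0 (RLE) and 0.006 (no filter), where Slc11a2 was 0.005 (no filter). Without each animal in turn, log2 changes crossed 0 as follows. KO forebrain: Tfrc -0.256 to 0.093, Slc40a1 -0.107 to 0.055, Slc11a2 -0.002 to 0.094. KO isolates: Fth1 -0.24 to 0.08, Ireb2 -0.025 to 0.102, Tfrc -0.052 to 0.367. Antibody forebrain: Hmox1 -0.081 to 0.128, Tfrc -0.018 to 0.168. Antibody isolates: Ireb2 -0.084 to 0.017, Tfrc -0.067 to 0.153. Tissue difference of the deletion: Fth1 -0.09 to 0.264, Ireb2 -0.057 to 0.07, Slc11a1 -0.011 to 0.46; of the antibody: Tfrc -0.145 to 0.101. Deletion minus antibody in forebrain: Fth1 -0.073 to 0.012, Ftl1 -0.016 to 0.135, Ireb2 -0.055 to 0.04, Slc11a2 -0.062 to 0.042, Tfrc -0.293 to 0.018; in isolates: Ireb2 -0.001 to 0.141, Slc11a2 -0.461 to 0.203, Slc25a37 -0.14 to 0.126, Slc40a1 -0.372 to 0.058, Tfrc -0.048 to 0.301. The number of mice limits all these values, and counting error adds to it for Slc11a1 in forebrain.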
